A study of Mus musculus with 8 samples.

Results

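The genes described are the 5 that encode the subunits of the transcription factor NF-κB (Nfkb1, Nfkb2, Rel, Rela and Relb) and 5 that encode its inhibitors, the IκB proteins (Nfkbia, Nfkbib, Nfkbid, Nfkbie and Nfkbiz). They were chosen by gene symbol, and all 10 were found among the 17364 genes of the files and passed the filter on low counts. They were measured in cultured mouse macrophages that carry the Sept2C111A allele and in wild-type macrophages. Both groups are labelled as bone-marrow-derived macrophages (BMDMs), cells grown from mouse bone marrow, and per the series' design text both had been given the cytokine TNF-α at 30 ng/ml for 24 h. In the labels, the extraction protocol covers aortic tissue as well as BMDMs. Some stromal and smooth muscle genes were abundant in every library, while others of the same lists were near 0 (values below). The purity of the cultures is therefore not established, and each CPM describes all cells present. There were 4 poly(A)-selected RNA libraries of Sept2C111A cells and 4 of wild-type cells. The product of Sept2 is septin 2, a filament-forming GTPase of the cytoskeleton, in which the allele's name gives alanine in place of a cysteine. The series title sets the study in S-nitrosylated septin 2, macrophage inflammation and migration. Untreated cells were not analysed here, so the values compare genotypes in the treated state and do not show the response to TNF-α. The sources used here give neither the age, sex and strain of the mice nor any pooling. Whether the replicates were separate mice or cultures is not stated either, so p-values measure the spread among these libraries, and that spread may be technical.

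NF-κB is a family of dimers that wait in the cytoplasm of a resting macrophage, held there by IκB proteins. TNF-α activates the IκB kinase (IKK), IκB is phosphorylated and degraded, and the freed dimers enter the nucleus and switch on genes of inflammation. Among these genes are those for IκBα and several NF-κB subunits, so the pathway rewrites its own components, and resynthesized IκBα carries the dimers out of the nucleus again. The classical dimers hold p65 (Rela) or c-Rel (Rel) with p50, which is cut from the Nfkb1 product. In the alternative pathway RelB pairs with p52, which is cut from the Nfkb2 product. IκBα, IκBβ and IκBε (Nfkbia, Nfkbib, Nfkbie) hold dimers in the cytoplasm, whereas the atypical IκBNS and IκBζ (Nfkbid, Nfkbiz) act in the nucleus on chosen target genes.

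The sequences before the starts of Nfkbia and Nfkbie are shown because these were the members whose RNA differed between the genotypes in edgeR. Both are the 250 bases before the annotated start, 5′ to 3′ on the strand of the gene, from RefSeq promoter windows of GRCm38.p6 (mm10). The Nfkbia window is chr12:55492648-55492897 on the minus strand and the Nfkbie window chr17:45555450-45555699 on the plus strand. Capitals mark the match to the κB consensus, the 10-base motif that NF-κB dimers bind, searched on both strands. The consensus used was GGGRNNYYCC, in which R is A or G, Y is C or T and N is any base.
Nfkbia: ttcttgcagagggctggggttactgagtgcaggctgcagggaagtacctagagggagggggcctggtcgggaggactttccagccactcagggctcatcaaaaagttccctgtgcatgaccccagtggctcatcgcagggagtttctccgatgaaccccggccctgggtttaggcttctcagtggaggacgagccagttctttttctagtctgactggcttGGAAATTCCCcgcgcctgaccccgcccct
Nfkbie: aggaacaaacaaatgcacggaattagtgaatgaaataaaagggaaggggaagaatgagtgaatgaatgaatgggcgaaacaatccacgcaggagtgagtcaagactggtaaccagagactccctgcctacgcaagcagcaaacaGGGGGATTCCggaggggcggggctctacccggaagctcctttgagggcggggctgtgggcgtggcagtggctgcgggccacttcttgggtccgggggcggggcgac
In Nfkbia the match, GGAAATTCCC, spanned bases -29 to -20 from the start, and in Nfkbie, GGGGGATTCC spanned bases -106 to -97. The Nfkbia match fits the consensus on the strand opposite the gene, and the Nfkbie match on the strand of the gene. Matches on either strand are written here as read on the strand of the gene. RefSeq windows were at hand for 7 of the 10 members, 11 windows in all, with Nfkb1, Relb and Nfkbiz not among them. Several of these windows precede a start inside the gene and not its outermost start. This holds for all 3 windows of Nfkb2, for 2 of the 3 of Nfkbid and for that of Rela, which lies partly inside the gene. In GENCODE M21 the windows of Rel and Rela and 2 of the 3 of Nfkb2 contain exon sequence of the gene itself, and that of Nfkbib contains exon sequence of Sirt2, while those of Nfkbia and Nfkbie contain no annotated exon. A match was found in 5 of the 7 genes, against 11% of 9986 tested genes with a window. By window, 7 of 11 held one, against 9.14% of 12816 windows of tested genes and 7.25% of all 32851 windows of this length. Rel held GGGAAATCCC at bases -92 to -83, and a second match overlapped it by all but 1 base. Nfkb2 held GGGAATTCCC and GGGGCTTTCC in the first of its 3 windows along the chromosome, GGAATGTCCC in the second and GGGACTTTCC in the third. In the first window a further match, GGAATTCCCC, overlapped GGGAATTCCC by all but 1 base. Nfkbid held GGGACTTCCC and GGAATTCCCC in the second of its 3 windows, and the windows of Rela and Nfkbib held none. A match is a run of letters and does not show that a factor bound there, and the absence of one concerns these 250 bases alone.

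**Figure D1:**
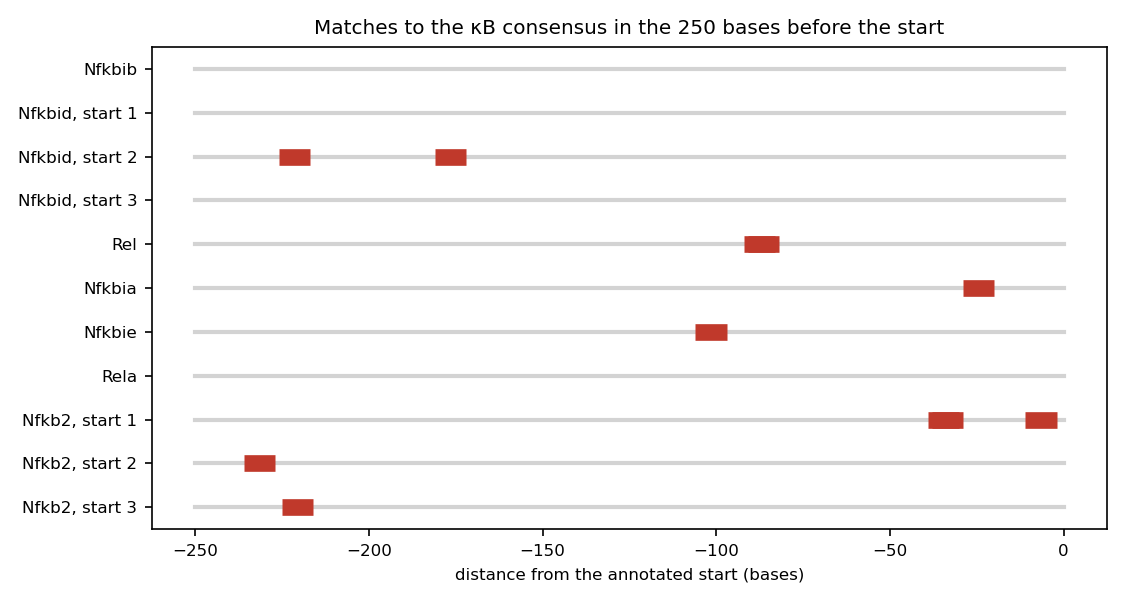
Matches to the κB consensus (red) in the 250-base RefSeq windows of 7 members; the x axis is the distance in bases from the start that the window precedes, and each line is a window. For Nfkb2, Rela and 2 windows of Nfkbid that start lies inside the gene, and windows of Rel, Rela and Nfkb2 hold exon sequence of the gene. Nfkbia has its match nearest to the start among the IκB genes, between -29 and -20 bases, and Rela and Nfkbib have none.

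Total expected counts ran from 19543958 to 21288493 per Sept2C111A library and from 20662929 to 20827160 per wild-type library. Sept2C111A libraries 2 and 3 scored differently from libraries 1 and 4 on principal component 1 of the log2 CPM values, at 28.2 and 36.6 against 0.87 and -1.98, with wild-type libraries between -19.4 and -11.2. Sept2 itself, listed as Septin2, averaged 188 ± 18.7 CPM in Sept2C111A and 226 ± 7.43 CPM in wild-type libraries (adjusted p = 0.063, edgeR). It was not called, but its groups did not overlap, at 163 to 207 CPM in Sept2C111A and 216 to 234 CPM in wild-type libraries. All Sept2C111A libraries were below all wild-type ones for 8.47% of tested genes. Counts per gene cannot show the edited codon. Macrophage markers such as Lyz2 and Csf1r were abundant, and the 10 markers listed summed to between 22367 and 24885 CPM in Sept2C111A and between 24785 and 26264 CPM in wild-type libraries. Fibroblast and stromal markers were present too, and their 10 genes summed to between 3493 and 4372 CPM in Sept2C111A and between 4370.2 and 5632 CPM in wild-type libraries. Of 9 tested, Col1a1 and Postn were called lower and none higher. Col1a1 and Col1a2 averaged 1545 and 1536 CPM in Sept2C111A and 2056 and 2002 CPM in wild-type libraries. Pdgfra, Lum and Thy1, of the same list, averaged at most 4.67 CPM in either genotype. The 4 smooth muscle markers, 2 of them called lower, summed to between 670 and 1028 CPM in Sept2C111A and between 1135 and 1516 CPM in wild-type libraries. Acta2 and Tagln made up most of these sums, and Myh11 averaged 0.28 CPM in Sept2C111A and 0.52 CPM in wild-type libraries. Of the macrophage markers, Fcgr1 was called higher (log2 fold change 1.18, adjusted p = 0.0011) and the other 9 were not called. Of the T cell list, 4 of 5 genes were in the files. They summed to between 19.1 and 24.3 CPM in Sept2C111A and between 15.1 and 16.6 CPM in wild-type libraries. Cd4 made up most of these sums, averaging 21.1 CPM in Sept2C111A and 14.5 CPM in wild-type libraries. It was called higher (log2 fold change 0.55, adjusted p = 0.0051). Cd3d, Cd8a and Lck averaged at most 0.61 CPM in either genotype. The 4 endothelial markers summed to between 4.88 and 5.63 CPM in Sept2C111A and between 4.06 and 4.30 CPM in wild-type libraries. Most of this was Pecam1, at 4.02 CPM in Sept2C111A and 2.92 CPM in wild-type libraries, which was called higher (log2 fold change 0.46, adjusted p = 0.045). Cdh5, Kdr and Tek averaged at most 0.69 CPM in either genotype. Marker sums for neutrophils, dendritic cells and B cells were at most 15.1 CPM in any library, with no gene called. The libraries are bulk samples, so fewer cells of a type and less RNA per cell cannot be told apart.

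The inhibitor genes Nfkbia and Nfkbie had less RNA in Sept2C111A macrophages. Nfkbia fell by 23.1% and Nfkbie fell by 17.2%. No other member, and none of the 5 subunit genes, passed the test. Values are CPM, counts divided by the library's size, after normalization by the trimmed mean of M values (TMM), and put on a common scale for all libraries, and fold changes are Sept2C111A over wild type. The test was the quasi-likelihood F test of edgeR across all 12462 tested genes with Benjamini-Hochberg adjustment, with an adjusted p under 0.05 taken as a call. Of the 10 members, 2 were called lower and 0 higher. Over all tested genes 6.46% were called, 3.03% lower and 3.43% higher. The log2 fold change was negative for 9 of 10 members, against 48.2% of all tested genes, and its median was -0.19, against 0.0086 over all tested genes. An unadjusted p under 0.05 was found for 5 members, against 24.8% of tested genes. For 3 members, Nfkbia, Nfkbie and Nfkb1, every Sept2C111A library was below every wild-type one, against 8.47% of tested genes.

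**Figure D2:**
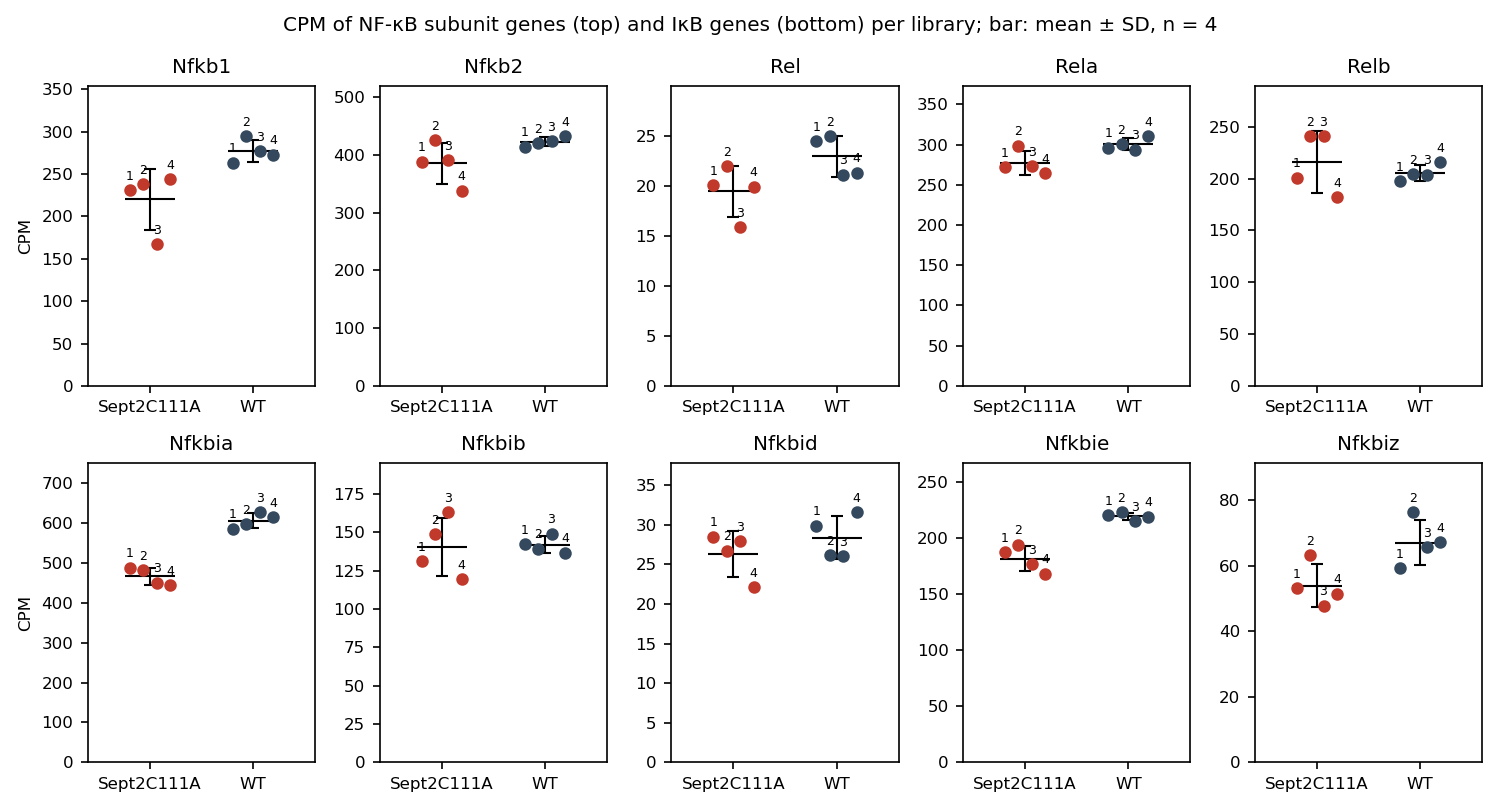
CPM of each of the 10 genes in the 8 libraries (y axes start at 0), subunit genes above and IκB genes below, with Sept2C111A in red and wild type in dark blue, library numbers beside the points, and bars for mean ± SD over 4 libraries. For Nfkbia the Sept2C111A libraries lie between 444 and 487 CPM and the wild-type libraries between 585 and 626 CPM.

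Nfkbia encodes IκBα, the inhibitor that is degraded first and resynthesized fastest after TNF-α. Nfkbia is on chromosome 12, at 55489409 to 55492647 (positions are in mm10). It measured 487, 481, 450.3 and 444 CPM in Sept2C111A libraries 1 to 4, against 585, 597, 626 and 614 CPM in wild-type libraries 1 to 4. The groups did not overlap, and the gap between them was wider than the whole range within either. Means were 465 ± 21.6 CPM in Sept2C111A and 605 ± 18.0 CPM in wild-type libraries (SD, n = 4 each). The log2 fold change was -0.38 (SE 0.060, 95% interval -0.51 to -0.25), with an adjusted p of 0.0051 in edgeR. The gene kept its call with each library left out in turn (adjusted p between 0.0060 and 0.034) and without Sept2C111A libraries 2 and 3 together. Smooth muscle marker sums were lower in every Sept2C111A library than in every wild-type one as well, and stromal sums overlapped only between Sept2C111A library 1 and wild-type library 2 (4372 and 4370.2 CPM). Macrophage marker sums likewise overlapped only between Sept2C111A library 2 and wild-type library 4 (24885 and 24785 CPM). The part of these cell types in the Nfkbia result was not tested.

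Nfkbie encodes IκBε, a second cytoplasmic inhibitor, resynthesized later than IκBα. It lies on chromosome 17 at 45555700 to 45563169. Its level was 187, 194, 177 and 168 CPM in Sept2C111A libraries 1 to 4, and 220.5, 223, 215 and 219 CPM in wild-type libraries 1 to 4. Again every Sept2C111A library was below every wild-type one, and the wild-type libraries lay close together, with a coefficient of variation of 1.44% against 6.30% in Sept2C111A. Means were 182 ± 11.5 CPM in Sept2C111A and 219 ± 3.16 CPM in wild-type libraries. The log2 fold change was -0.27 (SE 0.061, 95% interval -0.41 to -0.14), with an adjusted p of 0.027 in edgeR. This call depended on the wild-type libraries. Leaving out wild-type library 1, 2, 3 or 4 ended it, at adjusted p = 0.094, 0.073, 0.090 and 0.081, while the fold change stayed between -0.28 and -0.26. In the same 4 fits the number of genes called over the whole table was 281, 475, 266 and 376, against 805 with all libraries.

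Nfkbib encodes IκBβ, the third cytoplasmic inhibitor, whose gene is known to respond little to NF-κB itself. It lies on chromosome 7 at 28758251 to 28766644. It measured 131, 149, 163 and 119.6 CPM in Sept2C111A libraries 1 to 4, against 142, 139, 149 and 137 CPM in wild-type libraries. The Sept2C111A libraries spread on both sides of the wild-type ones. Its log2 fold change was -0.014 (95% interval -0.21 to 0.18, adjusted p = 0.94), an interval that leaves room for a change in either direction. The gene overlaps Sirt2 (778 bases) and Ccer2 (718 bases) on the opposite strand. Overlaps given here and for other members are of whole gene spans, introns included. How far exons overlap is not given here, nor is the strandedness of the counting, so whether reads could belong to either gene is not known.

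The atypical inhibitors were less abundant. Nfkbiz encodes IκBζ, a nuclear cofactor needed for a subset of secondary response genes, and lies on chromosome 16 at 55811375 to 55838954. It measured 53.1, 63.2, 47.8 and 51.5 CPM in Sept2C111A libraries 1 to 4, against 59.2, 76.2, 65.5 and 67.2 CPM in wild-type libraries. Sept2C111A library 2 lay above wild-type library 1, so the groups overlapped at that pair. The log2 fold change was -0.32 (SE 0.099, 95% interval -0.53 to -0.10), which did not pass (adjusted p = 0.081). DESeq2 called it at an adjusted p of 0.042, the lowest of its 16 alternatives, the highest being 0.20. Nfkbid encodes IκBNS, a nuclear regulator of cytokine genes, and lies on chromosome 7 at 30421731 to 30428749. It measured 28.5, 26.7, 27.9 and 22.1 CPM in Sept2C111A libraries 1 to 4, and 29.9, 26.1, 26.0 and 31.5 CPM in wild-type libraries. The groups overlapped widely, with Sept2C111A library 4 below all others (log2 fold change -0.11, 95% interval -0.33 to 0.11, adjusted p = 0.52).

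Among the subunit genes, edgeR called 0 of 5, while 2 had an unadjusted p under 0.05, DESeq2 called 1 and limma voom 0. Nfkb1, the gene of p105 and p50, lies on chromosome 3 at 135584655 to 135691969 and came nearest. On the same strand it overlaps the unconfirmed gene model Gm43430 over 3897 bases. It measured 231, 238, 167 and 244 CPM in Sept2C111A libraries 1 to 4, against 263, 295, 277 and 273 CPM in wild-type libraries. The groups did not overlap, and Sept2C111A library 3 stood well below the other Sept2C111A libraries. The means were 220.1 ± 35.7 CPM in Sept2C111A and 277 ± 13.2 CPM in wild-type libraries. This is a log2 fold change of -0.33 (SE 0.11, 95% interval -0.57 to -0.095), and the adjusted p of 0.090 did not pass in edgeR. Without Sept2C111A library 4 it was called, at an adjusted p of 0.035, in a fit that called 2077 genes over the whole table. Without Sept2C111A library 3 the fold change was the smallest of the leave-one-out values, at -0.22. DESeq2 called the gene at an adjusted p of 0.042, and its 16 alternatives gave adjusted p-values between 0.035 and 0.20.

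Rela, the gene of p65, the main activating subunit, lies on chromosome 19 at 5637442 to 5648134. It measured 272, 299, 273 and 265 CPM in Sept2C111A libraries 1 to 4, against 296, 301, 294 and 311 CPM in wild-type libraries. Sept2C111A library 2 lay within the wild-type range and the other Sept2C111A libraries below it. Its log2 fold change was -0.12 (95% interval -0.25 to 0.015, adjusted p = 0.26). Rel, the gene of c-Rel, a subunit of lymphoid and myeloid cells, lies on chromosome 11 at 23736847 to 23770969. It measured 20.1, 22.0, 15.9 and 19.9 CPM in Sept2C111A libraries 1 to 4, and 24.5, 25.0, 21.1 and 21.3 CPM in wild-type libraries. Sept2C111A library 2 again reached the wild-type range (log2 fold change -0.24, 95% interval -0.47 to -0.0088, adjusted p = 0.19).

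The genes of the alternative pathway did not pass the test either. Nfkb2, the gene of p100 and p52, lies on chromosome 19 at 46300994 to 46312400 and overlaps the noncoding gene AC114539.1 (1292 bases) and Psd (299 bases), both on the opposite strand. It measured 388, 425, 391 and 338 CPM in Sept2C111A libraries 1 to 4, against 414, 420.1, 424 and 432 CPM in wild-type libraries. Sept2C111A library 2 fell inside the narrow wild-type range and library 4 lay far below it (log2 fold change -0.13, 95% interval -0.29 to 0.027, adjusted p = 0.28). Relb, the partner of p52, lies on chromosome 7 at 19606217 to 19629438 and was the member with a positive fold change. It measured 201, 241, 241 and 182 CPM in Sept2C111A libraries 1 to 4, against 198, 204, 204 and 216 CPM in wild-type libraries. Sept2C111A libraries 2 and 3 were above all wild-type libraries and library 4 below all of them (log2 fold change 0.074, 95% interval -0.13 to 0.28, adjusted p = 0.66). Without Sept2C111A libraries 2 and 3 the fold change of Relb was -0.10 (adjusted p = 0.45).

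**Figure D3:**
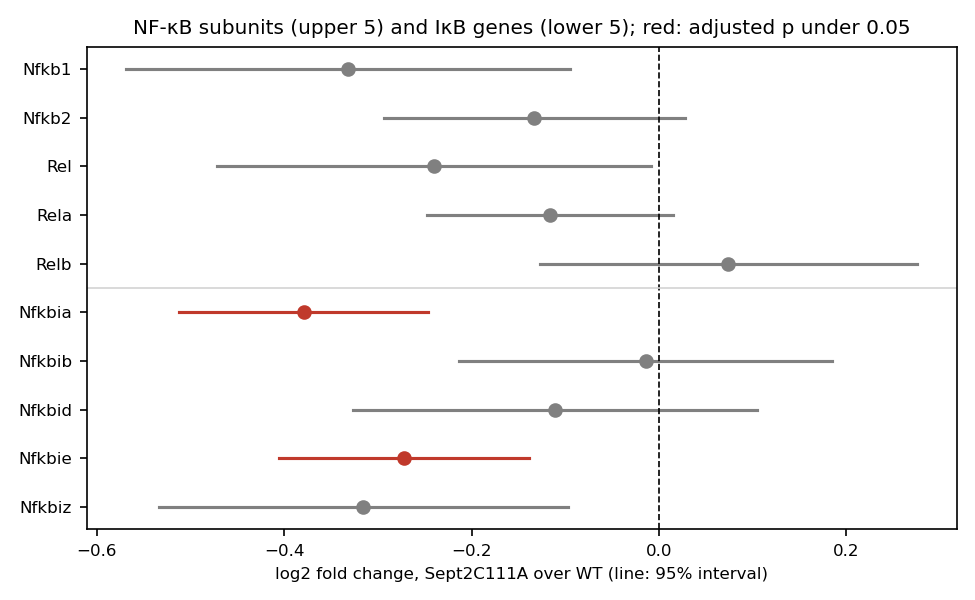
Log2 fold change of each gene, Sept2C111A over wild type (points), with its 95% interval from the edgeR fit (lines), subunit genes above the grey line and IκB genes below it; red marks genes called at an adjusted p under 0.05. Nfkbia at -0.38 and Nfkbie at -0.27 are the called genes, and the interval of Relb runs from -0.13 to 0.28.

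The Sept2C111A libraries differed among themselves more than the wild-type libraries did. For all 10 genes the coefficient of variation was larger in Sept2C111A libraries, between 4.64% for Nfkbia and 16.2% for Nfkb1, than in wild-type libraries, where it ran from 1.44% for Nfkbie to 10.4% for Nfkbiz. Sept2C111A library 2 was above its group mean of log2 CPM for 10 of 10 members. Sept2C111A library 4 was below it for 8 of 10 members and was the lowest of the 8 libraries for 7 of them. Sept2C111A library 3 was the lowest of all for the other 3, Nfkb1, Rel and Nfkbiz, and the highest of all for Relb and Nfkbib. Libraries 3 and 4 of this genotype therefore had different members at the bottom.

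Ratios of read counts within a library do not depend on how libraries were scaled, and are given here without a test. Nfkbia over Rela was 1.79, 1.61, 1.65 and 1.68 in Sept2C111A libraries 1 to 4, against 1.98, 1.99, 2.13 and 1.98 in wild-type libraries, so that every Sept2C111A library had fewer Nfkbia reads per Rela read. Nfkbia over Nfkbib averaged 3.36 ± 0.456 in Sept2C111A and 4.27 ± 0.164 in wild-type libraries, also without overlap. Nfkbie over Nfkbia ran from 0.379 to 0.404 in Sept2C111A and from 0.344 to 0.377 in wild-type libraries. Relb over Rela ran from 0.687 to 0.882 in Sept2C111A and from 0.667 to 0.695 in wild-type libraries, overlapping through Sept2C111A library 4. Nfkb2 over Nfkb1 reached 2.34 in Sept2C111A library 3 and was 1.38 in library 4, a range that enclosed the wild-type range of 1.42 to 1.58.

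Levels of different genes were compared per kilobase of the longest coding transcript in GENCODE M21. Nfkbia was the most abundant, at 295 ± 13.7 CPM per kilobase in Sept2C111A and 384 ± 11.4 in wild-type libraries. Rela, Nfkb2 and Relb followed, at 102, 100.2 and 97.9 CPM per kilobase in Sept2C111A and 111, 109.9 and 93.0 in wild-type libraries. In Sept2C111A libraries the ranges of these 3 genes all overlapped, and in wild-type libraries those of Rela and Nfkb2 did, while Relb lay lower. With the length of all exons joined, Nfkb2 came after Relb in Sept2C111A libraries. Nfkbie, Nfkbib and Nfkb1 came next, at 74.6, 68.2 and 53.5 CPM per kilobase in Sept2C111A and 90.1, 68.9 and 67.3 in wild-type libraries. The ranges of Nfkbib and Nfkb1 overlapped in both genotypes, those of Nfkbie and Nfkbib in Sept2C111A libraries and those of Relb and Nfkbie in wild-type libraries. Where ranges overlapped, the order of the genes is therefore not fixed by the data. Nfkbiz and Nfkbid were low, at 13.1 and 12.9 CPM per kilobase in Sept2C111A and 16.3 and 13.9 in wild-type libraries, overlapping each other in both. Rel was lowest, at 2.61 CPM per kilobase in Sept2C111A and 3.08 in wild-type libraries.

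**Figure D4:**
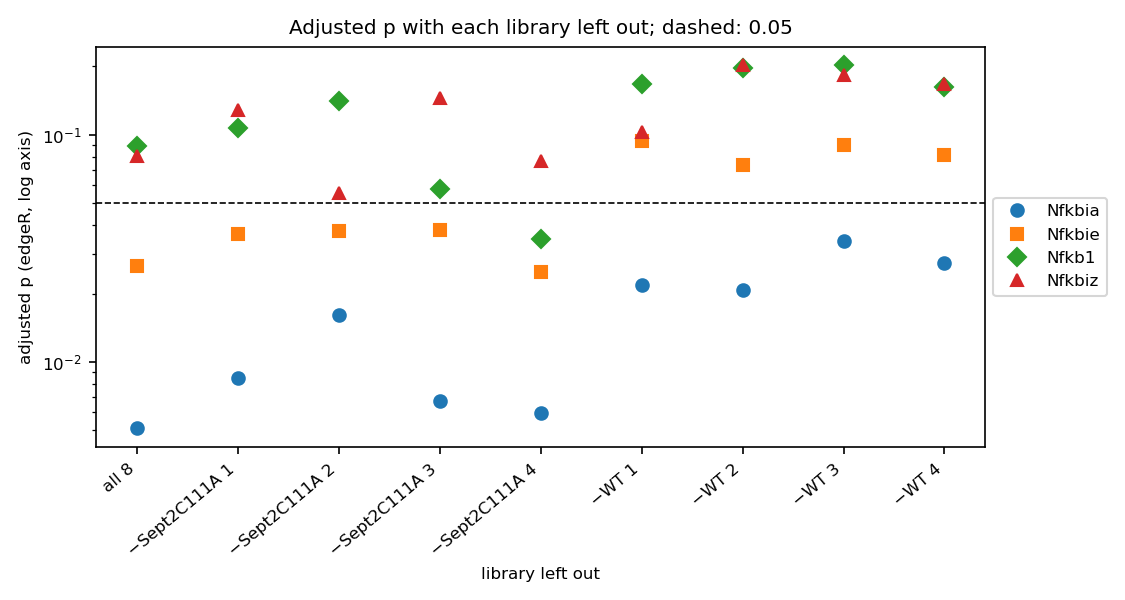
Adjusted p in edgeR (log axis) of Nfkbia, Nfkbie, Nfkb1 and Nfkbiz with all 8 libraries and with each library left out in turn; the dashed line is 0.05. Nfkbia stays under the line throughout, between 0.0051 and 0.034, and Nfkbie rises above it when any wild-type library is left out.

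Other genes of the pathway were read from the same fit, ordered by role. Upstream of the members, edgeR called 0 of 18 genes of the IKK complex and receptor-proximal activators, with 4 at an unadjusted p under 0.05 and 0 called by DESeq2 or limma voom. Among all tested genes edgeR called 6.46%, and 24.8% had an unadjusted p under 0.05. The median log2 fold change of the 18 genes was -0.0086. The groups did not overlap for 3 of them, against 16.9% of all tested genes. Tnfrsf1b, which encodes TNF receptor 2 and is the most abundant of them, measured 822 CPM in Sept2C111A and 860.0 CPM in wild-type libraries (adjusted p = 0.57). Without Sept2C111A library 4, 2 of the 18 were called higher, in a fit that called 2077 of 12583 genes over the whole table, 983 of them lower.

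Of 16 genes that shut NF-κB off, other than the IκB genes above, 2 were called lower, 0 higher and 14 did not pass. Among all tested genes 3.03% were called lower and 3.43% higher. Tnfaip3 encodes A20, a ubiquitin-editing enzyme that acts on signalling complexes above IKK, and averaged 101 ± 20.1 CPM in Sept2C111A and 146 ± 9.25 CPM in wild-type libraries (log2 fold change -0.54, SE 0.13, adjusted p = 0.033, edgeR). Tnip3 encodes an A20-binding protein and averaged 171 ± 5.41 CPM in Sept2C111A and 210.5 ± 9.97 CPM in wild-type libraries (log2 fold change -0.30, SE 0.058, adjusted p = 0.015, edgeR). Neither gene passed when wild-type library 2, 3 or 4 was left out, and 1 of them passed without wild-type library 1 or Sept2C111A library 2. Bcl3, an atypical IκB gene outside the 10 members, was chosen after its values were seen and measured 136 CPM in Sept2C111A and 124 CPM in wild-type libraries (adjusted p = 0.40).

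Of 25 NF-κB target genes, 24 were tested, and 12 were called lower, 0 higher and 12 did not pass. Among all tested genes 3.03% were called lower. The median log2 fold change of the 24 targets was -0.42, with a negative value for 22 of them and a highest value of 0.35. For 14 targets, against 8.47% of all tested genes, every Sept2C111A library was below every wild-type one. The 4 with the smallest adjusted p were Tnf, Cxcl2, Ccl3 and Cxcl1, a cytokine gene and chemokine genes, with log2 fold changes of -0.82, -0.62, -0.57 and -1.26 (adjusted p between 0.00057 and 0.0021, edgeR). The number called lower was 7 without wild-type library 3 or 4, in fits that called 0.827% and 1.19% of all tested genes lower. The list was drawn up with earlier results of these data known, in which several of these genes were already seen to be lower. Il6 was not tested, at a mean of 0.216 CPM in Sept2C111A and 0.473 CPM in wild-type libraries. Of 5 genes known to need IκBζ, only Il12b and Lcn2 were tested. Il12b, already counted among the 12 targets called lower, was low in both genotypes, at 1.52 CPM in Sept2C111A and 3.82 CPM in wild-type libraries. Its log2 fold change was -1.33 (adjusted p = 0.0057, edgeR). Lcn2 was not called (log2 fold change -0.40, adjusted p = 0.49, edgeR). Whether fold changes differed between roles was not tested. Stromal, smooth muscle and macrophage marker sums were also mostly lower in Sept2C111A libraries, and their part in these results was not tested either.

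**Figure D5:**
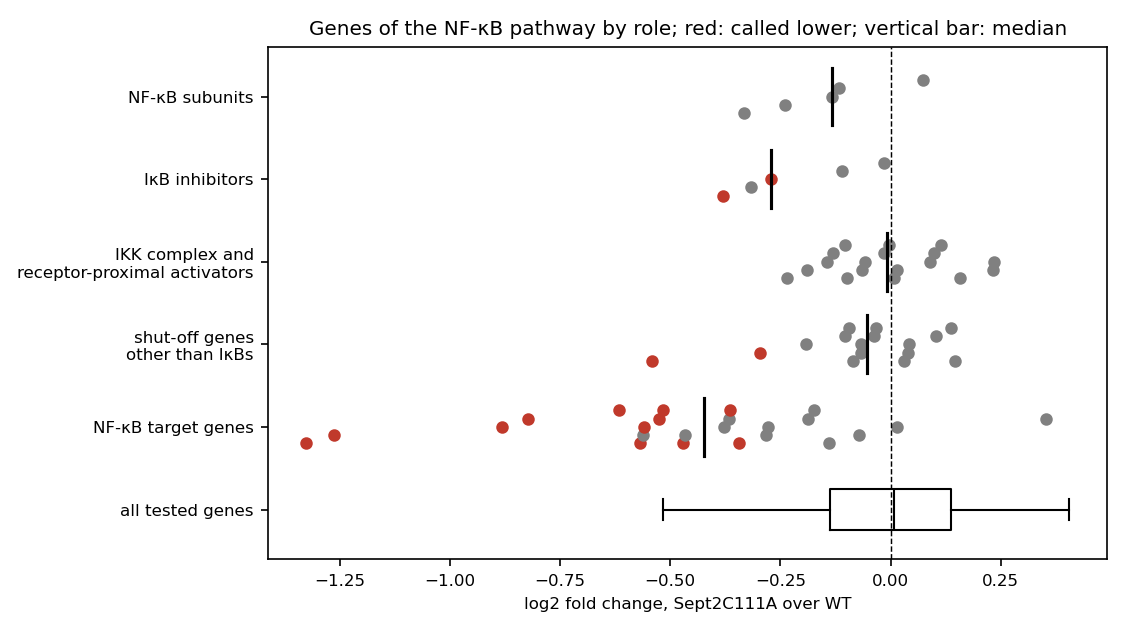
Log2 fold change, Sept2C111A over wild type, of each tested gene of the pathway by role (points; red where called lower), with the median of each group as a vertical bar; the bottom row gives all tested genes as a box from the 25th to the 75th percentile with whiskers at the 5th and 95th. Medians are -0.13 for subunits, -0.27 for IκB inhibitors, -0.0086 for activators above them, -0.053 for other shut-off genes and -0.42 for targets.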

How the data were processed

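The authors deposited 1 file of expected counts (estimated reads per gene symbol, which need not be whole) for each of 8 libraries. RSEM 1.3.1, Bowtie2, DESeq2 1.4.5 and mm10 appear in the submitters' processing notes without their roles, and mRNA was enriched on oligo(dT) beads per the labels' protocols. The sources used here do not give the annotation or the strandedness. Counts were rounded, filtered with filterByExpr (minimum count 10), normalized by TMM and fitted with edgeR 4.0.16 in R 4.3.3, with genotype as the only term. The SE is the fold change over the square root of F, and intervals use the fit's degrees of freedom. A gene with no read lies under 0.14 to 0.16 CPM, the level of 3 counts, which covers counting error only.

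Alternatives used other normalizations and filters, DESeq2 1.42.0, limma 3.58.1 (voom), a replicate block and libraries left out. All 10 members were described. From each other list the text names up to 4 called genes, those of smallest adjusted p, or its most abundant gene where none was called. The members and lists were chosen with earlier results of these data known. On simulated counts for this comparison, with 12390 genes tested, 95% of genes with a log2 change of 1 and 74.7% with 0.5 were recovered, with 10 false calls. True changes as small as those of the members were not simulated. Every simulated gene had the same spread beyond counting error in both genotypes, whereas the members spread more in Sept2C111A libraries. These rates may therefore not hold for the real libraries.

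No library was a copy of another, since the mean chi-square per gene over pairs was at least 4.26, against 1 for sampling noise. Positions are those of RefSeq on GRCm38, which is mm10.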

Additional observations from a re-analysis of the deposited data

Results flagged for a closer look

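Nfkb1 in Sept2C111A library 3 measured 167 CPM, far below the other 3 Sept2C111A libraries, which lay between 231 and 244 CPM. The gap to the nearest of them was 0.8294 of the group's whole range, just past the limit of Dixon's test for 4 samples. Of the 20 combinations of gene and genotype examined this was the only one past the limit, and chance alone gives about 1 in 20.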

How the results depend on the processing

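Nfkbia was called lower in all 16 alternatives, with log2 fold changes between -0.40 and -0.35 and a highest adjusted p of 0.034, and Nfkbie in 11 of 16. The number of members called lower, 2, was 4 with DESeq2, which added Nfkb1 and Nfkbiz, and 1 to 3 with single libraries left out. The share of all tested genes called lower moved too. It was 3.03% in the main fit, 5.91% with DESeq2 and between 0.827% and 7.81% with single libraries left out. Whether the sample numbers pair the libraries is not stated. Deviations from the group means correlated at 0.14, 0.096, -0.023 and -0.24 between same-numbered libraries. Differently numbered libraries were not compared in this way, so these values cannot settle the pairing. With the replicate block 1 member (Nfkbia) and 1 other shut-off gene were called lower, in a fit that called 2.02% of all tested genes lower. Over the leave-one-out fits, 0 to 2 other shut-off genes and 7 to 16 targets were called lower, and 0 to 2 upstream genes higher. The fold change of Nfkbib turned positive without wild-type library 3 (0.015), Sept2C111A library 1 (0.019) or Sept2C111A library 4 (0.062), and that of Relb turned negative without Sept2C111A libraries 2 and 3 together (-0.10), the cause not tested in either. Other normalizations and filters in edgeR left the members' calls as they were. With single libraries left out, the fold change of Nfkbib ran from -0.091 to 0.062.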

Other observations

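The genes whose log2 CPM over the 8 libraries, centred on each gene's own mean, ran closest to that of Nfkbia were Stk38l, Ehd1, Itga5, Cyb5b and Micall2, out of 8307 with a mean of at least 10 CPM. Their root mean square distances from it were 0.047, 0.048, 0.049, 0.057 and 0.058 on the log2 scale. Itga5 encodes the integrin α5 chain and Ehd1 a protein of endocytic recycling, and their log2 fold changes were -0.44 and -0.38. Closest to Nfkbie were Micall2, Cflar, Mapkapk2, Slc12a4 and Nab2, at distances of 0.033, 0.033, 0.039, 0.045 and 0.049. Cflar encodes c-FLIP, an inhibitor of caspase 8, and had a log2 fold change of -0.25, and Mapkapk2, a kinase below p38, had one of -0.23. All of these genes were called lower in edgeR, with adjusted p between 0.0027 and 0.047. They were chosen for closeness to a called member over the same 8 libraries, so these calls are not a separate result. Micall2 was the gene named for both.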
